A study of Zea mays with 322 samples.

Results

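The dosage series of the long arm of chromosome 9 (9L) consists of maize plants that carry different numbers of copies of the part of 9L translocated in the line TB-9Lc. The members were chosen by their sample labels. They are 22 of the 322 small RNA libraries of the study, in 5 groups, and each library gave a value for the same 64 MIRNA loci. The groups are monosomies with 1 copy of 9L in an otherwise diploid plant (1D, 4 plants), diploid controls with 2 copies (2D, 4 plants), trisomies with 3 copies (3D, 4 plants), disomies with 2 copies in an otherwise haploid plant (h2D, 5 plants), and haploid controls with 1 copy (h1D, 5 plants). The h1D plants also served as control for the disomies of 7L and 10L. RNA was taken from leaf of plants of 45 days, and each library is from 1 named plant. Some of the aneuploids carry parts of the B chromosome with the translocated arm, and in these groups the dose of 9L and that of the B parts cannot be told apart. The study's library table lists the 3 diploid groups under 1 experiment and the haploid groups under another, without saying what the experiments differ in, so levels were compared within a background only. The labelled tissue could not be checked against marker genes, since only miRNA loci were counted.

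In a B–A translocation the outer part of a normal chromosome arm is joined to the centromere of a B chromosome, a dispensable extra chromosome whose copies tend to stay together at a pollen mitosis, so that progeny receive different numbers of copies of that part. A locus inside the varied part is said to lie in *cis*, and loci elsewhere in the genome lie in *trans*. Plant miRNAs are cut from hairpin transcripts, are loaded into ARGONAUTE proteins and guide the cleavage of mRNAs with a nearly complementary site, most of them encoding transcription factors. miR171 targets GRAS transcription factors of the HAIRY MERISTEM type, miR156 targets SPL factors that drive the change from juvenile to adult leaves, miR396 targets growth-regulating factors (GRF) of dividing leaf cells, miR167 targets auxin response factors, and miR399 targets the ubiquitin-conjugating enzyme PHO2 in the response to low phosphate.

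Of the 64 loci, 1 lies in the varied part of 9L, MIR171n, and 63 lie in *trans*. MIR171n is at chr9:130254843-130255075 of the W22 genome. Its mature sequence is shared by MIR171e (chr1:8284261-8284538), MIR171f (chr5:9157057-9157171) and MIR171i (chr1:280728864-280728938), so that a read of the mature miRNA cannot be assigned to 1 of the 4 loci by its sequence. The mature sequence of MIR171n is shown with that of MIR171g, which changed in *trans*, with the seed (bases 2 to 8) in capitals.
MIR171n: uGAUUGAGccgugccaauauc
MIR171g: uGAGCCGAgccaauaucacuuc
The longest run of bases that MIR171g shares with MIR171n is 9 bases long, and their seeds differ. The bases of MIR171g before that run match those before it in MIR171n except for the last base. The 2 sequences are thus alike but offset. A predicted target site of MIR171n is shown next for the transcript Zm00001d022034_T001 of chromosome 7, with the 1 base that does not pair with the miRNA by Watson–Crick rules in capitals.
Zm00001d022034_T001 site: gauauuggcGcggcucaauca

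The *trans* loci on which the results turn belong to a few families. The members of the miR156 family that changed with 9L dosage are shown to compare their 5′ ends.
MIR156b: cUGACAGAagagagugagcac
MIR156j: aUGACAGAagagagagagcac
MIR156l: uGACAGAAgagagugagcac
MIR156b (chr3:7747865-7748022) and MIR156j (chr7:133874247-133874509) share a seed. MIR156l (chr5:186624556-186624649) has a mature sequence that is also that of MIR156h, and its seed starts 1 base further along. The 2 miR396 loci that changed also have seeds that are offset by 1 base.
MIR396f: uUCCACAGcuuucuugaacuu
MIR396c: uCCACAGGcuuucuugaacug
The mature sequences of the other named loci called in a comparison with control are given for reference.
MIR167h: aGAUCAUGuugcagcuucacu
MIR399e: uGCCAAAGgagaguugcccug
MIR160g: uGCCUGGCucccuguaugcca
MIR396f lies at chr5:218605858-218606093, MIR396c at chr2:1896662-1896937, MIR167h at chr6:91955005-91955255, MIR399e at chr2:16783346-16783553, MIR160g at chr6:89967506-89967743 and MIR171g at chr7:43696495-43696690. A W22 genome annotation was not used here, so exons, introns and host genes are not given.

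Reads on the 64 loci numbered 47539 to 121337 per library (median 92318), out of 978892 to 2540765 mapped reads. MIR166f and MIR166g, 2 loci of 1 mature sequence, took 92.1 to 96.9% of the counts. The remaining loci ran from MIR396c, with 458 to 2272 reads per library, down to loci with no read in some libraries. No pair of plants within a group agreed within sampling noise (38 pairs, chi-square per degree of freedom of 1.51 or more), and all were kept as separate plants. Levels are given in RPM, the reads at a locus relative to all mapped reads of that plant, in which 3 reads correspond to 1.18 to 3.06 RPM depending on the library. A locus was called when its adjusted p was below 0.05 (edgeR's quasi-likelihood test with Benjamini–Hochberg adjustment over all tested loci), and a log2 fold change is given with its standard error (SE) or 95% confidence interval. The p-values measure the spread between plants, and counting error is part of it. The libraries of 9Lch43 and 9Lch44 stand apart in the h2D group: they had 55579 and 47539 counts, reads at 37 of the 64 loci each, and levels of MIR396c of 2065 and 2321 RPM. Each h2D/h1D result is therefore also given without them where that changes the call, an alternative chosen after the data were seen.

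MIR171n, the *cis* miRNA, did not differ detectably from control in either diploid aneuploid, and in disomies its mean was about that expected from the copy ratio although the call was not reached. In monosomies MIR171n had 14.6, 11.2, 6.83 and 9.51 RPM in the 4 plants of 1D, against 6.40, 14.3, 12.2 and 18 RPM in the 4 plants of 2D. The 2 groups overlapped over most of their range. The log2 fold change was -0.37 (SE 0.40, adjusted p = 0.715), with an interval from -1.17 to 0.43 that holds both 0 and the log2 copy ratio of -1. In trisomies it had 11.5, 11.5, 11.1 and 6.58 RPM, and the highest 3D plant was below 3 of the 4 diploid controls. The log2 fold change of 3D/2D was -0.29 (SE 0.35, adjusted p = 0.982), with an interval from -1.02 to 0.44 that holds 0 but not the log2 copy ratio of 0.58. Measured against the mean of the 5 diploid control groups listed under the same experiment, the same value was 0.13, of the opposite sign. Over 1, 2 and 3 copies the slope was 0.06 log2 units per copy (SE 0.20, adjusted p = 0.921).

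In the haploid background MIR171n had 13.5, 21.7, 14.3, 11.2 and 15.3 RPM in the 5 plants of h2D, against 4.3, 16.9, 5.61, 4.75 and 7.67 RPM in the 5 plants of h1D. Every h2D plant was above 4 of the 5 h1D plants, and the fifth, Hh71, lay above all but 1 of the h2D plants. The 8 haploid control plants of 2 groups listed under the same experiment spanned 4.3 to 16.9 RPM, which holds every h2D plant but 9Lch35. The log2 fold change was 1.05 (SE 0.41, unadjusted p = 0.0224 and adjusted p = 0.0846 by edgeR), and its interval from 0.17 to 1.93 holds the log2 copy ratio of 1. The call depended on the settings and on single plants. With all plants kept it was reached with DESeq2's size factors (log2 fold change 1.11, adjusted p = 0.029), with DESeq2's own test (1.12, adjusted p = 0.0179), with no filter on low levels (1.23, adjusted p = 0.0107), in a fit of all 5 groups (1.22, adjusted p = 0.00869) and against the mean of both haploid control groups (1.001, adjusted p = 0.0362). Without Hh71 the log2 fold change was 1.60 (adjusted p = 0.00231), without 9Lch34 it was 1.22 (adjusted p = 0.0191), and without both 9Lch43 and 9Lch44 it was 1.31 (adjusted p = 0.0146).

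**Figure D1:**
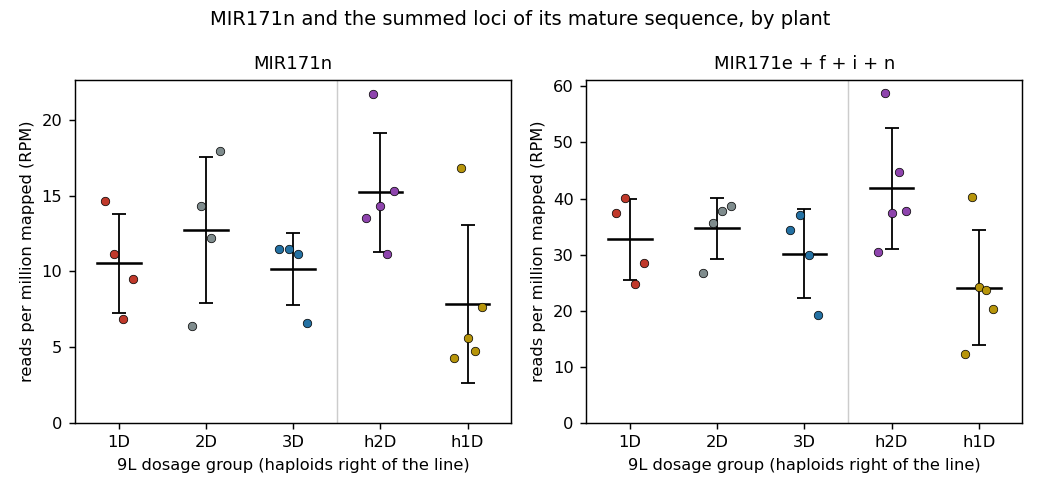
MIR171n (left) and the sum of the 4 loci of its mature sequence (right) in RPM on a linear axis, 1 point per plant, for 1, 2 and 3 copies of 9L in diploids (left of the grey line) and for disomies and haploid controls (right of it). Horizontal bars are group means and error bars 1 SD. The means of MIR171n are 10.5, 12.7 and 10.2 RPM in 1D, 2D and 3D, and 15.2 RPM in h2D and 7.84 RPM in h1D.

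Because the same mature sequence comes from 4 loci, their reads were also summed. The sum was 30.5, 58.9, 37.3, 44.7 and 37.8 RPM in h2D, against 12.2, 40.2, 24.3, 23.7 and 20.2 RPM in h1D. Only Hh71 among the haploid controls reached the range of the disomies. The sum was called higher in disomies (log2 fold change 1.28, SE 0.25, adjusted p = 0.00137 over all mature sequences by edgeR). In diploids it was not called, with a log2 fold change of -0.24 (SE 0.28, adjusted p = 0.795) in 1D/2D and -0.17 (SE 0.25, adjusted p = 0.955) in 3D/2D. MIR171n held 59 of the 182 reads of the sum in h1D and 124 of the 334 in h2D. The rest was nearly all at MIR171e on chromosome 1, which averaged 26.4 ± 8.63 RPM in h2D and 16.3 ± 6.07 RPM in h1D (SD, n = 5 each) and was not called (log2 fold change 0.81, SE 0.35, adjusted p = 0.115). MIR171f and MIR171i had at most 2 reads in any plant, at or under the floor of 3 reads. How the authors' program placed reads that match several loci was not tested, so the split between MIR171n and MIR171e is uncertain.

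In monosomies of 9L, MIR156b, MIR156l and Cluster_219449 were higher and MIR396c, MIR396f and MIR167h lower than in diploid controls, all in *trans*. Of the 48 loci tested, 6 were called (12.5%), 3 higher and 3 lower, and 4 more had an unadjusted p under 0.05. All 6 were *trans* loci on chromosomes 2, 3, 5 and 6. Over all tested loci the median log2 fold change was 0.11.

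MIR156b had 9.90, 10.0, 13 and 16.9 RPM in 1D, against 2.40, 3.70, 2.76 and 1.2 RPM in 2D. The groups did not overlap, and the log2 fold change was 2.14 (SE 0.51, adjusted p = 0.000881 by edgeR). MIR156l had 18.5, 27.3, 27.3 and 35.4 RPM in 1D, against 10.8, 13.9, 8.27 and 9.18 RPM in 2D, again with no overlap (log2 fold change 1.203, SE 0.35, adjusted p = 0.00855). The call for MIR156l was lost without the 1D plant 9Lc47 (log2 fold change 1.03, adjusted p = 0.0599) or the 2D plant 9Lc66 (1.10, adjusted p = 0.0578). MIR156h, whose mature sequence is that of MIR156l, was above 0 but missed the threshold (log2 fold change 1.78, adjusted p = 0.0523). The fourth family member, MIR156j, showed no detectable difference (log2 fold change 0.08, interval -0.72 to 0.89). Thus 2 of 4 miR156 loci were called higher and none lower, and the family median was 1.49.

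Cluster_219449, a locus of chromosome 6 without a miRNA name, had the largest called increase. It had 12.1, 17.3, 13 and 11.1 RPM in 1D, against 1.2, 3.24, 4.33 and 1.60 RPM in 2D, or 21 to 31 reads per library against 3 to 11. The groups were well apart (log2 fold change 2.20, SE 0.51, adjusted p = 0.000691). Cluster_219450, its neighbour at chr6:7801840-7801917, was not called (log2 fold change 0.63, SE 0.56, adjusted p = 0.664).

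MIR396f had 132, 87.6, 68.3 and 67.7 RPM in 1D, against 116, 183, 202 and 179 RPM in 2D. The groups overlapped through 1 plant on each side, 9Lc21 with 132 RPM and 9Lc15 with 116 RPM. The log2 fold change was -1.06 (SE 0.22, adjusted p = 0.000395), about the size of the log2 copy ratio of 9L although the locus lies on chromosome 5. MIR396c, on chromosome 2, had 439, 388, 435 and 328 RPM in 1D, against 557, 512, 528 and 661 RPM in 2D (log2 fold change -0.66, SE 0.15, adjusted p = 0.000904). All 4 monosomies lay below all 4 diploids, but in a fit of all 5 groups the log2 fold change was -0.51 and not called (adjusted p = 0.223). The remaining member of the family, MIR396b, lies on the short arm of chromosome 9 outside the varied part, averaged 2.85 ± 1.07 RPM in 1D and 2.61 ± 1.04 RPM in 2D (SD, n = 4 each), and had a log2 fold change of 0.00 (interval -1.25 to 1.25).

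MIR167h had 150, 134, 117 and 124 RPM in 1D, against 195, 231, 233 and 262 RPM in 2D, with no overlap. It had the lowest p of all loci in this comparison (log2 fold change -0.94, SE 0.18, adjusted p = 0.000285). MIR167c, of the same family, averaged 37.8 ± 3.75 RPM in 1D and 33.1 ± 10.7 RPM in 2D (SD, n = 4 each) and was not called (log2 fold change 0.05, SE 0.28). In plants with 1 B chromosome against plants without one (1B/0B), where none of 43 loci was called by edgeR (0%) and 4 had an unadjusted p under 0.05, MIR167c, MIR167h and MIR396c were among those 4. MIR167h had a log2 fold change of -0.65 (unadjusted p = 0.0319, adjusted p = 0.343) and MIR396c one of -0.48 (unadjusted p = 0.0221, adjusted p = 0.317), both of the sign seen in 1D/2D. MIR167c had one of 1.196 (unadjusted p = 0.00585, adjusted p = 0.252). The other of the 4, Cluster_15779, had one of -0.83 (unadjusted p = 0.0166, adjusted p = 0.317). Its value in 1D/2D was of the opposite sign (0.52, adjusted p = 0.0606). The part of the B chromosome in the 1D/2D values was not tested. For this comparison the 1B libraries EB37 and EB40 were joined as their mean and entered as a single library, against 4 plants of 0B. The labels list them as separate plants, so joining them lowered the number of 1B libraries and the power to call a locus. The 1B/0B comparison was thus a weak test. The comparison was added after the data were seen.

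**Figure D2:**
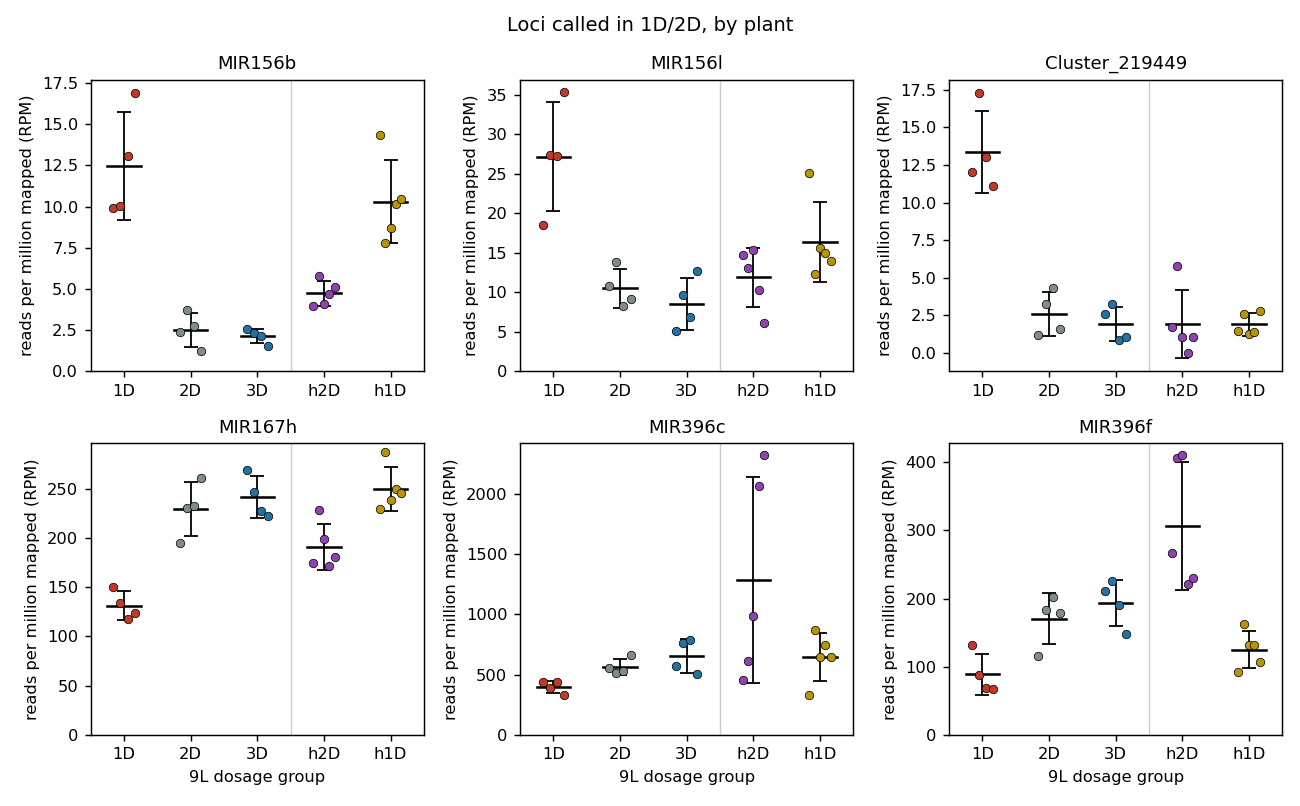
The 6 loci called in 1D/2D, in RPM on linear axes, 1 point per plant in 1D, 2D, 3D, h2D and h1D, with group means (horizontal bars) and 1 SD (error bars). MIR156b, MIR156l and Cluster_219449 are high in the 4 monosomies only among the diploid-background groups. MIR396f is higher in the disomies, at 221 to 410 RPM, than in the haploid controls.

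The 6 calls were the same with DESeq2's size factors and with DESeq2's own test. With all mapped reads as the library size the 6 were kept and 4 more were called, all of them higher, which made 7 higher and 3 lower. That scaling moved the median of all tested loci by 0.15. The 64 loci together took a share of all mapped reads of 4.95 ± 0.594% in 1D and 4.14 ± 0.186% in 2D (SD, n = 4 each), a difference of 0.808 percentage points (exact two-sided permutation p = 0.0286, the smallest possible with 4 against 4, and 0.0857 after adjustment over 3 comparisons). Without MIR166f and MIR166g the share was 0.184% in 1D and 0.209% in 2D, so the sign turned. Without the 2D plant 9Lc34, 10 loci were called in place of 6.

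Against the mean of all 5 diploid control groups listed under the same experiment, each with its own term, the 6 loci were again called, with log2 fold changes of 2.15 for Cluster_219449, 1.66 for MIR156b, 0.88 for MIR156l, -0.82 for MIR396f, -0.89 for MIR396c and -0.74 for MIR167h. The control plants of those groups varied widely at some of the loci. MIR156b ranged between 0.655 and 14.5 RPM over 20 diploid control plants with a median of 2.94 RPM, and 3 of the 4 monosomies lay inside that range. MIR156l ranged between 6.97 and 40.2 RPM and MIR167h between 116 and 300 RPM over the same plants. All 4 monosomies lay inside the range at both loci. MIR396f was at least 88.5 RPM in these controls, above every monosomy but 9Lc21. Cluster_219449 reached at most 8.66 RPM in the 20 controls, below all 4 monosomies. MIR396c was at least 512 RPM in them, above all 4 monosomies.

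In trisomies no locus was called among 44 tested (0%). None had an unadjusted p under 0.05 in edgeR either, and none was called by DESeq2 or under any other alternative tried. The lowest p was that of MIR393b, whose target genes encode auxin receptors of the TIR1 type. It had 16.2, 15.6, 12.4 and 15.2 RPM in 3D, against 28, 17.1, 19.7 and 27.1 RPM in 2D. The groups did not overlap, and the log2 fold change was -0.61 (SE 0.30, unadjusted p = 0.0525 and adjusted p = 0.982 by edgeR). Next were 2 unnamed loci of a few reads per library. Cluster_158979 averaged 0.795 ± 0.423 RPM in 3D and 2.15 ± 1.79 RPM in 2D, and Cluster_4527 averaged 0.793 ± 0.419 RPM in 3D and 2.09 ± 2.05 RPM in 2D (SD, n = 4 each), with adjusted p = 0.982 for both.

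None of the loci called in 1D/2D was called in trisomies, but the intervals of some of them were wide and also hold sizeable changes. MIR156b had 2.55, 2.29, 2.14 and 1.52 RPM in 3D, with a log2 fold change of -0.20 (interval -1.39 to 0.98). That of MIR156l was -0.28 (interval -1.09 to 0.53). MIR396f had 212, 225, 190 and 148 RPM, with a log2 fold change of 0.22 (interval -0.18 to 0.62), and MIR396c one of 0.23 (interval -0.13 to 0.58).  MIR167h had 270, 247, 228 and 223 RPM, with a log2 fold change of 0.10 (interval -0.26 to 0.46). Cluster_219449 had a log2 fold change of -0.39 (interval -1.70 to 0.93), which is wide because its reads were few.

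A line fitted over 1, 2 and 3 copies gave 7 calls among 46 loci (15.2%), with 3 rising and 4 falling with the number of copies. All 6 loci called in 1D/2D were among them, and since this fit uses the same 1D and 2D plants it is no independent test of them. The slopes in log2 units per copy were 0.65 for MIR396f, 0.55 for MIR167h, 0.48 for MIR396c, -0.72 for MIR156l, -1.26 for MIR156b and -1.40 for Cluster_219449 (SE 0.10 to 0.29, adjusted p = 0.00195 or less by edgeR). The seventh was MIR399e, which had 22.8, 22.3, 17.4 and 23.3 RPM in 1D, 11.6, 1.85, 10.6 and 14.4 RPM in 2D, and 5.53, 11, 11.6 and 3.54 RPM in 3D. Its slope was -0.63 per copy (SE 0.21, adjusted p = 0.0188), and without 9Lc21, 9Lc40, 9Lc47, 9Lc1 or 9Lc5 it lay between -0.62 and -0.54 and was no longer called (adjusted p from 0.0559 to 0.101). For each of the 7 loci the step between 1 and 2 copies was larger in RPM than that between 2 and 3 copies. Since 6 of the 7 had been called in 1D/2D from these same plants, their choice favoured a larger first step. No conclusion on the shape of the dose response is drawn from it.

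In disomies of 9L most of the called loci were lower than in haploid controls, and MIR396f and MIR156j were higher. Among 49 loci tested in h2D/h1D, 8 were called (16.3%), 2 higher and 6 lower, and 17 had an unadjusted p under 0.05. The median log2 fold change over all tested loci was -0.05. All 8 lie in *trans*.

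MIR396f was the locus of lowest p. It had 267, 406, 410, 221 and 230 RPM in h2D, against 91.8, 163, 131, 132 and 107 RPM in h1D. The groups did not overlap, and the log2 fold change was 1.39 (SE 0.21, adjusted p = 0.00089 by edgeR), with an interval from 0.93 to 1.85. It kept its call under all 19 alternatives tried for this comparison, with values between 1.26 and 1.78. MIR396c had 457, 611, 984, 2065 and 2321 RPM in h2D, against 329, 873, 646, 743 and 647 RPM in h1D. Here 2 disomies, 9Lch43 and 9Lch44, carried the difference of the means, and the locus was not called (log2 fold change 1.18, SE 0.47, adjusted p = 0.0973). MIR396b averaged 3.75 ± 1.82 RPM in h2D and 4.99 ± 2.20 RPM in h1D (SD, n = 5 each) and was not called.

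MIR399e showed the largest change. It had 2.26, 6.75, 5.12, 0 and 3.06 RPM in h2D, against 23.7, 39.6, 22.4, 31.9 and 23.7 RPM in h1D. No disomy came near a haploid control (log2 fold change -2.81, SE 0.47, adjusted p = 0.00089), and the call held under all 19 alternatives, with values between -3.21 and -2.10. Disomies of the 2 other arms that share these controls also had low levels of MIR399e, with 1.81 to 7.19 RPM in the 4 plants of 7L h2D and 1.41 to 4.88 RPM in the 5 plants of 10L19 h2D.

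MIR171g had 28.8, 26.5, 38.9, 53.1 and 52.1 RPM in h2D, against 80.3, 110, 86.6, 112 and 117 RPM in h1D, with no overlap (log2 fold change -1.22, SE 0.28, adjusted p = 0.0168). This miR171 locus of chromosome 7 thus fell while the summed reads of the MIR171n sequence rose. Against the mean of 2 haploid control groups listed under the same experiment the fall was 0.71 on the log2 scale and not called (adjusted p = 0.0635).

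The miR156 loci did not move together in disomies. MIR156j had 7.33, 14.5, 10.7, 10.3 and 9.19 RPM in h2D, against 2.87, 2.59, 1.87, 6.78 and 6.27 RPM in h1D (log2 fold change 1.47, SE 0.39, adjusted p = 0.023). MIR156b had 3.95, 5.79, 4.09, 4.66 and 5.11 RPM in h2D, against 14.3, 7.78, 8.72, 10.2 and 10.5 RPM in h1D (log2 fold change -1.004, SE 0.27, adjusted p = 0.023). Neither locus showed an overlap between its groups. Over the 8 haploid control plants of 2 groups listed under the same experiment, however, MIR156j ranged between 1.87 and 12.3 RPM. That range holds every disomy but 9Lch35. The call of MIR156j was lost without 9Lch35 (log2 fold change 1.29, adjusted p = 0.0557). That of MIR156b was lost without 9Lch34, 9Lch38, Hh70 or Hh74 (log2 fold change -0.98 to -0.78, adjusted p from 0.0525 to 0.0828), without 9Lch43 and 9Lch44 together (-0.91, adjusted p = 0.0712), and against the mean of both haploid control groups (-0.20, adjusted p = 0.727). MIR156l and MIR156h were not called, with log2 fold changes of -0.32 and 0.08.

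The other 3 called loci had low levels. MIR160g, which targets auxin response factors, had 5.08, 3.38, 6.14, 3.73 and 5.11 RPM in h2D, against 15.1, 9.08, 6.85, 8.14 and 19.5 RPM in h1D (log2 fold change -1.21, SE 0.36, adjusted p = 0.0343). The unnamed Cluster_170541 had 0.564, 0.965, 3.07, 0 and 2.04 RPM in h2D, against 3.59, 5.19, 11.2, 3.39 and 9.06 RPM in h1D (log2 fold change -2.10, SE 0.62, adjusted p = 0.023). Cluster_20009 had at most 3 reads in any h2D plant and 3 to 12 reads in the h1D plants (log2 fold change -2.32, SE 0.82, adjusted p = 0.0362). In RPM the groups of each of the 3 did not overlap, but in reads, before scaling to depth, they did. Cluster_20009 had 3 reads in 9Lch34, 9Lch35 and Hh73. Cluster_170541 had 6 in 9Lch38 against 5 in Hh70 and Hh73, and MIR160g 12 in 9Lch38 against 11 in Hh72. Freedom from overlap was not tallied over all tested loci. MIR160g and Cluster_20009 were not called without 9Lch43 and 9Lch44 (adjusted p = 0.0794 and 0.073). Single plants also ended these calls: any of 9Lch35, 9Lch38, 9Lch43, Hh70 and Hh74 for MIR160g (log2 fold change -1.29 to -0.93, adjusted p up to 0.0828), any of 9Lch35, Hh72 and Hh74 for Cluster_170541 (-1.97 to -1.83, adjusted p up to 0.0654), and any of 9Lch35, 9Lch38, 9Lch43, 9Lch44, Hh70, Hh72 and Hh74 for Cluster_20009 (-2.81 to -1.91, adjusted p up to 0.0757).

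**Figure D3:**
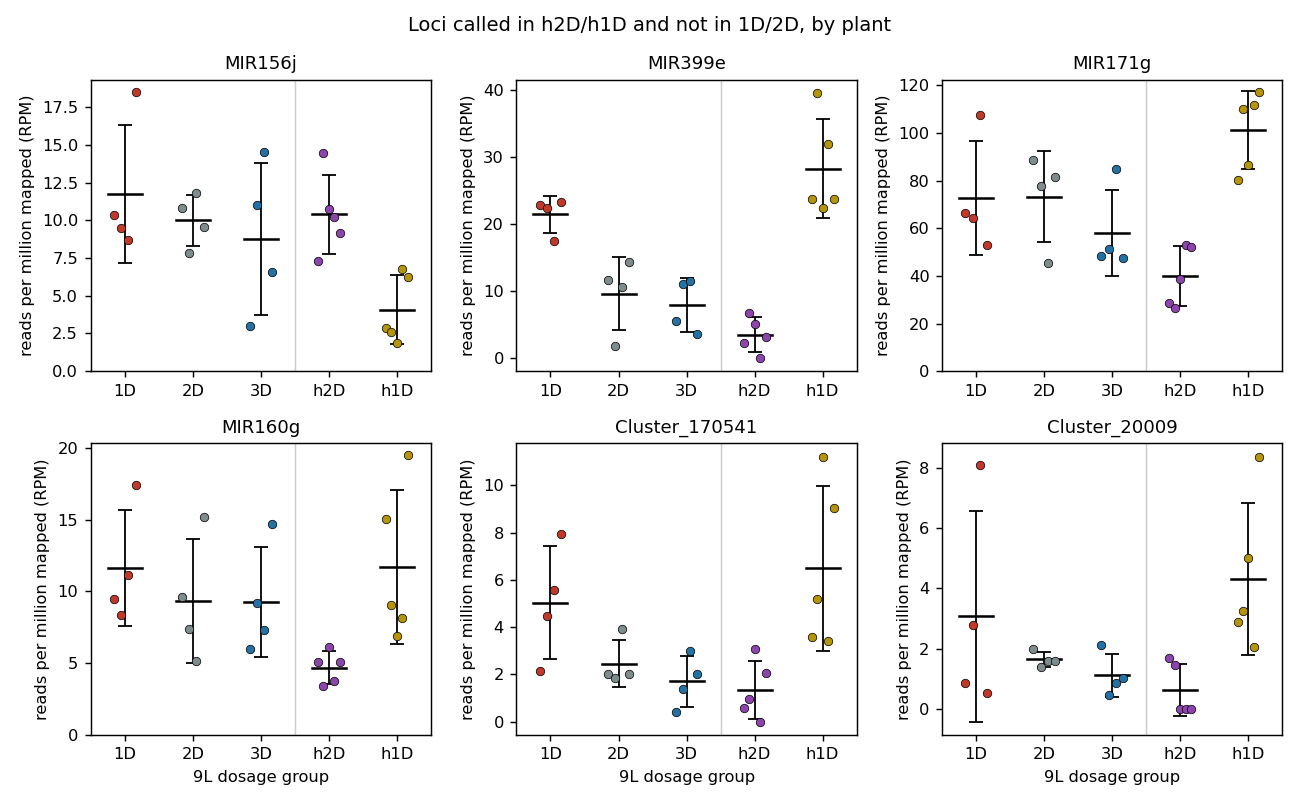
The 6 loci called in h2D/h1D but not in 1D/2D, in RPM on linear axes, 1 point per plant in 1D, 2D, 3D, h2D and h1D, with group means (horizontal bars) and 1 SD (error bars). The h2D points lie below all h1D points for MIR399e, MIR171g, MIR160g, Cluster_170541 and Cluster_20009, and above them for MIR156j.

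The balance of higher and lower calls in disomies depended on scaling and on the shallow libraries. DESeq2's size factors gave 6 higher and 6 lower, all mapped reads as library size 4 higher and 9 lower, and DESeq2's own test 7 of each. Without 9Lch43 and 9Lch44 there were 7 higher and 3 lower. The loci then newly called, all higher, were MIR171n, MIR171e, MIR166k, MIR390b and MIR319c, whose families target GRAS factors (MIR171n and MIR171e), HD-ZIP III factors of leaf polarity (MIR166k), the precursor of trans-acting siRNAs that target auxin response factors (MIR390b) and TCP factors (MIR319c). The number of calls was 13 without 9Lch34 and 4 without either 9Lch35 or Hh74.

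**Figure D4:**
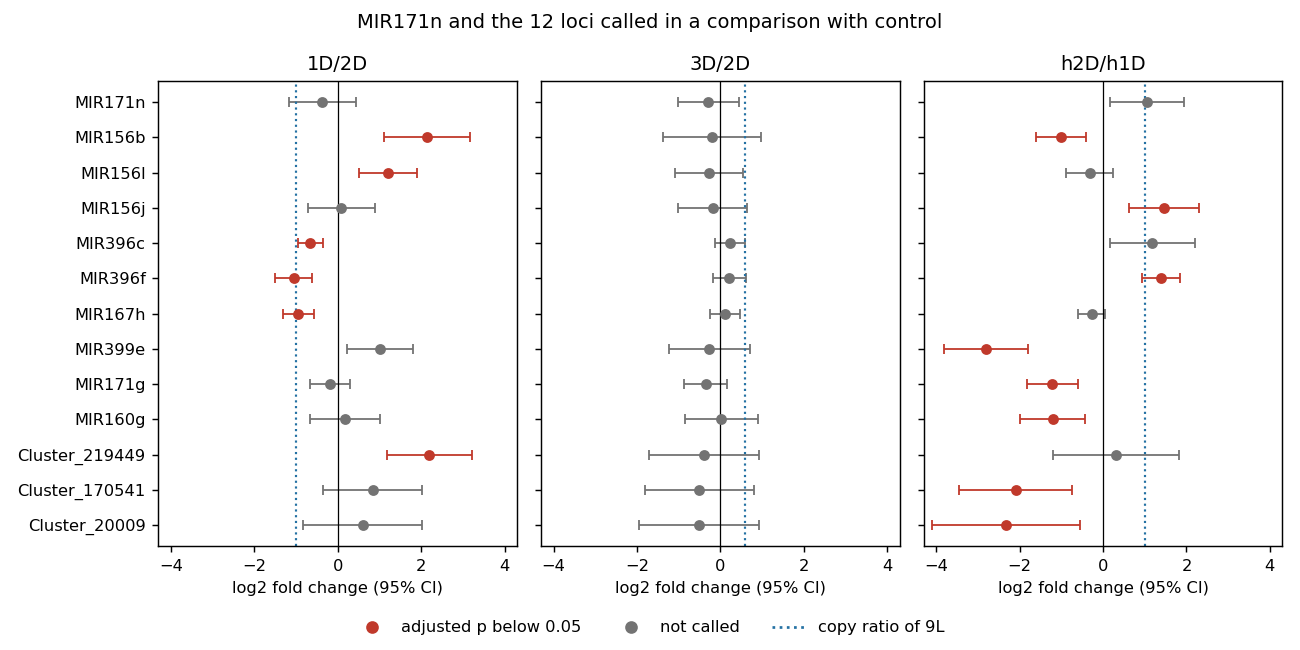
Log2 fold changes with 95% confidence intervals of MIR171n and of the 12 loci called in any comparison with control, in 1D/2D, 3D/2D and h2D/h1D (panels). Red marks an adjusted p below 0.05, the solid line no change and the dotted line the log2 copy ratio of 9L (-1, 0.58 and 1). MIR396f and MIR156b are red in the panels of 1D/2D and h2D/h1D, and that of 3D/2D holds no red point.

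MIR396f and MIR156b were called in both 1D/2D and h2D/h1D, 2 of the 12 loci called in either. MIR396f was higher with more copies of 9L on both backgrounds, and MIR156b lower. For a direct comparison, the 1-to-2-copy step was expressed as 2D against 1D and as h2D against h1D in 1 fit of the 4 groups, and the difference of the steps was tested. For MIR396f the steps were 1.55 in haploids and 1.12 in diploids on the log2 scale, with a difference of 0.43 (interval -0.29 to 1.14, adjusted p = 0.536). For MIR156b they were -0.88 in haploids and -2.07 in diploids, with a difference of 1.19 (SE 0.49, adjusted p = 0.149). For MIR171n the difference was 0.79 (interval -0.26 to 1.83, adjusted p = 0.426).

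The steps differed at 5 of 49 loci (10.2%). MIR167h rose by 1.00 with the second copy in diploids and had a step of -0.14 in haploids (difference -1.15, SE 0.24, adjusted p = 0.00235), and this held under all 25 alternatives. MIR171g had a step of -1.11 in haploids and 0.24 in diploids (difference -1.35, SE 0.35, adjusted p = 0.0173, or 0.0597 without 9Lc15). Cluster_219449 had a step of 0.44 in haploids and -2.13 in diploids (difference 2.58, SE 0.79, adjusted p = 0.0345). MIR156j had a step of 1.59 in haploids and -0.02 in diploids (difference 1.61, SE 0.50, adjusted p = 0.0345), and Cluster_219450 one of 1.74 in haploids and -0.56 in diploids (difference 2.30, SE 0.74, adjusted p = 0.0345). The last 3 calls each ended without single plants (adjusted p from 0.0504 to 0.327). These were 9Lc21, 9Lc40, 9Lc15, 9Lc66, 9Lch35, Hh70 or Hh72 for Cluster_219449 (difference 1.58 to 2.58). For MIR156j they were 9Lc21, 9Lc47, 9Lc15, 9Lc66, 9Lch35, 9Lch38, Hh70, Hh71 or Hh72 (1.34 to 1.66), and for Cluster_219450 9Lc21, 9Lc43, 9Lc15, 9Lch35, 9Lch43, 9Lch44, Hh70, Hh72 or Hh73 (1.89 to 2.31). Without both 9Lch43 and 9Lch44, 3 loci were called, MIR167h, MIR171g and Cluster_219449. The disomies of 7L and 10L also had more Cluster_219450 than the same h1D plants, with values given below. Across the 49 loci the steps of the 2 backgrounds had the same sign at 30, with a Pearson correlation of 0.38 across loci, given as a description only since loci share libraries and many have few reads.

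**Figure D5:**
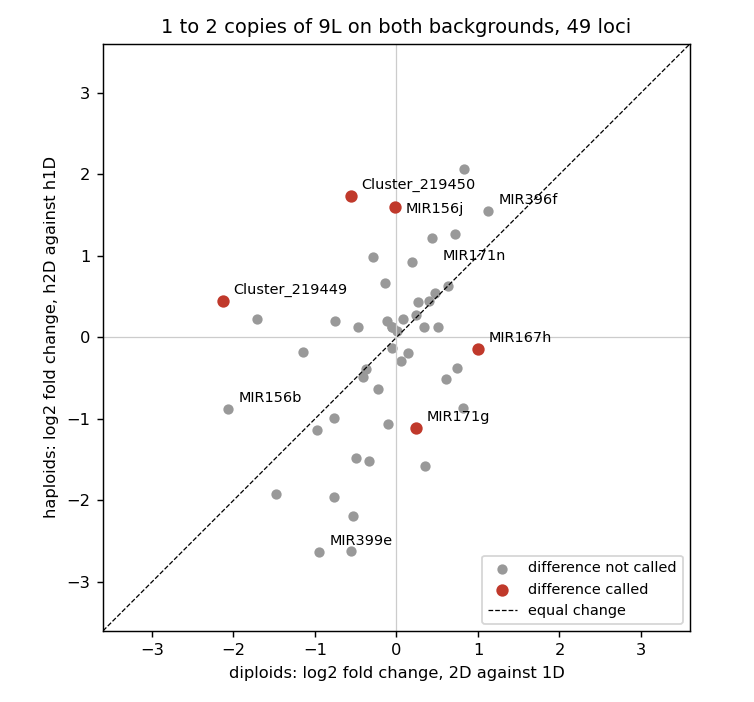
Change of each of 49 loci between 1 and 2 copies of 9L, as log2 fold change of h2D against h1D (vertical axis) and of 2D against 1D (horizontal axis), 1 point per locus. Red marks the 5 loci whose steps differed (adjusted p below 0.05), and the dashed line equal change. MIR396f lies near that line in the upper right and MIR156b in the lower left.

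To see whether the changes in disomies were those of 9L or of haploid aneuploids in general, h2D of 9L was compared with the mean of the disomies of 7L and 10L, which share the h1D controls. Of 48 loci 7 differed (14.6%), 1 higher and 6 lower in 9L, with a median log2 difference of -0.17 over all tested loci. MIR396f was higher in 9L disomies, with 221 to 410 RPM, against 93.9 to 132 RPM in 7L and 158.4 to 238 RPM in 10L disomies (log2 difference 1.2, SE 0.24, adjusted p = 0.00117). The 9L plants did not overlap with those of 7L but did with those of 10L, and against 10L alone the difference was 0.71 (adjusted p = 0.0603). MIR156b was lower in 9L disomies, with 3.95 to 5.79 RPM, against 7.52 to 35.3 RPM in 7L and 5.64 to 14.7 RPM in 10L disomies (log2 difference -1.37, SE 0.33, adjusted p = 0.00424, and -0.95 with adjusted p = 0.0603 against 10L alone).

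The other 5 were Cluster_219449 (-1.77), Cluster_203651 (-1.88), Cluster_20009 (-1.92), Cluster_273394 (-1.84) and MIR160g (log2 difference -0.995, SE 0.33), with adjusted p from 0.00913 to 0.0302 by edgeR. Against h1D in the same fit, Cluster_219449 was not called in 9L disomies (0.29, adjusted p = 0.776). It was called higher in those of 7L (1.68, adjusted p = 0.0286) and 10L (2.43, adjusted p = 0.000664). Cluster_203651 was not called against h1D in 9L (-1.19, adjusted p = 0.144), 7L (1.08, adjusted p = 0.131) or 10L disomies (0.30, adjusted p = 0.753). Cluster_273394 lies in the part of 7L that is present in 2 copies in the 7L disomies. It averaged 1.38 ± 1.54 RPM in h2D of 9L, against 17.4 ± 13.7 RPM in h2D of 7L and 2.16 ± 1.18 RPM in h2D of 10L (SD, n = 5, 4 and 5), and against 10L alone it was not called (log2 difference -0.38, adjusted p = 0.771). Cluster_203651 was not called against 10L alone (-1.49, adjusted p = 0.0603). Against 7L alone, Cluster_20009 (-1.58, adjusted p = 0.112), Cluster_219449 (-1.39, adjusted p = 0.0821) and MIR160g (-0.87, adjusted p = 0.112) were not called. Without 9Lch43 and 9Lch44 only MIR396f, MIR156b and Cluster_203651 were called. Leaving out 9Lch38, 9Lch43 or 9Lch44 ended the call of Cluster_20009 (log2 difference -1.73 to -1.55). Leaving out 9Lch35, 9Lch38, 9Lch43, 9Lch44, Hh72, 7Lbh41 or 10L19h62 ended that of Cluster_273394 (-1.84 to -1.45), and 9Lch35, 9Lch43, 9Lch44, Hh70, Hh72, 7Lbh23, 7Lbh41 or 10L19h60 that of MIR160g (-1.01 to -0.84). With DESeq2's own test 14 loci were called, 4 higher and 10 lower, and the number of calls was 4 without 9Lch43 or 9Lch44 and 12 without 7Lbh47 or 10L19h61. MIR156j also lies in the part of 7L present in 2 copies in the 7L disomies, where it averaged 53.7 ± 22.4 RPM (SD, n = 4). It was not called against the other disomies (log2 difference -0.75, adjusted p = 0.0837) or against 10L alone (0.60, adjusted p = 0.259). Cluster_219450 was not called against the other disomies (log2 difference -0.21, adjusted p = 0.653). Against h1D in this fit it was higher in 9L (1.57, adjusted p = 0.00882), 7L (1.53, adjusted p = 0.016) and 10L disomies (2.02, adjusted p = 0.000664). Cluster_170541 was not called either (-0.83, adjusted p = 0.29), and against h1D it was lower in 7L disomies (-1.51, adjusted p = 0.0286) but not called in 10L (-1.15, adjusted p = 0.125). MIR399e was not called against the other disomies (log2 difference 0.19, interval -0.74 to 1.11), nor was MIR171g (-0.59, interval -1.30 to 0.11). For MIR171g the 2 other arms were unlike, with 26.5 to 53.1 RPM in h2D of 9L, against 19.3 to 89.5 RPM in h2D of 7L and 50.01 to 177 RPM in h2D of 10L. Against 10L alone it was called lower in 9L (log2 difference -1.30, adjusted p = 0.0244), and against 7L alone it was not (0.11, adjusted p = 0.872). MIR171n had a log2 difference of 0.47 (interval -0.15 to 1.09, adjusted p = 0.29) although neither other arm carries it. It averaged 15.2 ± 3.94 RPM in h2D of 9L (SD, n = 5), 13.4 ± 3.69 RPM in h2D of 7L (SD, n = 4) and 11.7 ± 2.42 RPM in h2D of 10L (SD, n = 5). Against h1D in this fit its log2 difference was 1.00 in 9L (adjusted p = 0.0337), 0.59 in 7L (adjusted p = 0.34) and 0.47 in 10L disomies (adjusted p = 0.474).

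Over all *trans* loci, the median ratio of mean RPM was 1.21 ± 0.194 for monosomies (SD over 4 plants, 47 loci), 0.959 ± 0.0927 for trisomies (SD over 4 plants, 43 loci) and 0.885 ± 0.0504 for disomies (SD over 5 plants, 45 loci), each relative to its control. The 1D plants had medians of 1.03 to 1.46 relative to the mean of 2D, and the 2D plants themselves 0.905 to 1.01. The 3D plants had 0.817 to 1.04, and the 2D plants 0.955 to 1.01 over those loci. The h2D plants had 0.794 to 0.913, and the h1D plants 0.875 to 1.06. Only the first of the 3 pairs was free of overlap, and the control plants were set against a mean that includes them. These are ratios of RPM, and with TMM scaling the median log2 fold change of 1D/2D was 0.11 over the 48 tested loci. In h2D/h1D, 15 of the 45 ratios were above 1, and after TMM scaling the median was 0.969.

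MIR166f and MIR166g, whose family targets HD-ZIP III factors, set most of the depth. MIR166f averaged 34821 ± 4342 RPM in 1D, 28725 ± 1337 RPM in 2D and 27757 ± 5173 RPM in 3D (SD, n = 4 each), and 37971 ± 4306 RPM in h2D and 41103 ± 2393 RPM in h1D (SD, n = 5 each). Neither locus was called in any of the 6 tests, but MIR166f was called higher in 1D/2D when all mapped reads were the library size.

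Among the families with 3 or more loci, miR171 had 5 tested loci in each comparison, none called in 1D/2D or 3D/2D and 1 lower in h2D/h1D, with medians of -0.19, -0.14 and -0.01. The miR166 family had 5 tested loci and no call in any comparison (medians -0.02, 0.04 and 0.10). The miR396 family had 2 of 3 lower in 1D/2D, none called in 3D/2D and 1 of 3 higher in h2D/h1D, with medians of -0.66, 0.22 and 1.18. Loci with a miRNA name had 5 calls among 31 in 1D/2D and 6 among 29 in h2D/h1D, and unnamed loci 1 among 17 and 2 among 20. The median log2 fold change of unnamed loci was 0.52 in monosomies, -0.33 in trisomies and -0.63 in disomies, against -0.08, 0.03 and 0.06 for named loci. Unnamed loci have few reads, and the difference between the classes was not tested. Of the 2 loci on the short arm of chromosome 9, MIR396b was not called in any test and Cluster_312979 had at most 2 reads in any plant.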

How the data were processed

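Small RNA libraries were made from leaf and sequenced by the authors, who trimmed adapters with cutadapt 1.16, kept reads of 18 to 30 nt, aligned them to the W22 genome and counted them at MIRNA loci with ShortStack. The raw counts deposited per locus and plant were used for tests. The deposited RPM values are those counts scaled to mapped reads, and were used as levels. Chromosome positions and miRNA names come from the study's locus table. Plant names in the labels are taken as separate plants, except that the 1B libraries EB37 and EB40 were joined as their mean.

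Loci with a mean of at least 0.5 RPM over the groups compared were tested with edgeR 4.0.16 (quasi-likelihood test, TMM scaling, R 4.3.3), and the Benjamini–Hochberg adjustment ran over all tested loci. The scripts were tested on simulated data. Ratios of mean RPM above 6 or below its inverse were left out of medians. Shares of mapped reads were compared by an exact two-sided permutation test (scipy 1.17.1). Intervals are 95% intervals. The loci named are MIR171n and the loci of its mature sequence, MIR166f and MIR166g, every called locus, the 3 of lowest p where none was called, MIR167c, MIR167h, and members of a called locus's family or neighbours of it, the last being chosen after their values were seen. Cluster_15779 was named for its unadjusted p in 1B/0B. The groups, loci and lists were chosen with earlier results of these data known. Alternatives were other scalings, DESeq2 1.42.0, other filters, summed identical loci, other control groups, and each plant left out. The comparison of plants with and without a B chromosome, and the fits without 9Lch43 and 9Lch44, were chosen after seeing the data.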

Additional observations from a re-analysis of the deposited data

Results flagged for a closer look

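In all, 127 sets of plants of 1 group were examined, each at 1 named locus or for 1 library measure. The library measures were the reads on the 64 loci and their share of mapped reads. A plant far from the others of its group was found in 9 sets, all at loci, and chance flags about 1 in 20 such sets. At MIR171n these were the 3D plant 9Lc5, low at 6.58 RPM, and the h1D plant Hh71, high at 16.9 RPM. In 1D, 9Lc21 stood apart at Cluster_203651 with 2.15 RPM, 9Lc47 at MIR156j with 18.5 RPM and 9Lc43 at MIR399e with 17.4 RPM. In 2D, 9Lc36 stood apart at Cluster_170541 with 3.94 RPM and at Cluster_273394 with 1.57 RPM. The 3D plant 9Lc3 had 84.7 RPM of MIR171g, and the h1D plant Hh70 had 25.1 RPM of MIR156l.

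The change between 1 and 2 copies differed between the haploid and the diploid background at 5 loci, by a test of the difference itself (edgeR). The log2 differences, haploid minus diploid, were -1.15 for MIR167h, -1.35 for MIR171g, 2.58 for Cluster_219449, 1.61 for MIR156j and 2.30 for Cluster_219450.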

How the results depend on the processing

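No paired analysis was possible because the plant names share no replicate numbers between groups. Of the 33 results for single called loci, none changed sign in 693 recomputed values, and 105 of those values missed the threshold. Calls in 1D/2D numbered 5 to 10 with 1 plant left out, and 10 with all mapped reads or with no filter, and calls in 3D/2D stayed at 0. Calls in h2D/h1D numbered 4 to 13 with 1 plant left out, 13 with all mapped reads, 14 with DESeq2 and 13 in a fit of 5 groups. Loci whose steps differed between backgrounds numbered 1 to 8 with 1 plant left out, 3 with no filter and 3 without 9Lch43 and 9Lch44. Loci that differed from 7L and 10L disomies numbered 4 to 12 with 1 plant left out, 11 with all mapped reads or with identical loci summed, 14 with DESeq2 and 3 without 9Lch43 and 9Lch44.

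The log2 fold change of MIR171n in h2D/h1D passed the threshold with size factors (1.11), DESeq2 (1.12), no filter (1.23), 5 groups in a fit (1.22), both haploid control groups (1.001) and without 9Lch43 and 9Lch44 (1.31). It lay between 0.868 and 1.60 with 1 plant left out. In 3D/2D it was 0.13 against 5 diploid control groups. The sum of the 4 loci of its mature sequence, which is not a value of MIR171n alone, passed in h2D/h1D with 1.28. The median *trans* ratio of h2D/h1D was 0.969 with TMM scaling, 0.831 as a median over plants, 0.760 with all ratios kept, 0.720 over loci of their own mature sequence, and 0.787 to 0.930 with 1 plant left out. Without MIR166f and MIR166g the difference in the share of mapped reads turned to -0.0250 percentage points for monosomies, 0.00766 for trisomies and 0.0698 for disomies. With 1 plant left out it was -0.387 to 0.162 in 3D/2D. The causes of these shifts were not tested. Loci with a few reads per library limit what could be detected.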
